A study of Homo sapiens with 21 samples.

Results

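The 39 HOX cluster genes were examined for open chromatin in human microglia-like cells. They are the genes named HOXA, HOXB, HOXC or HOXD followed by a number, 39 of 19974 protein-coding genes, and they stand in 4 clusters. ATAC-seq marks open chromatin by the insertions of a transposase, and the deposited data were lists of peaks, the stretches where a library had more tags than their surroundings. Peaks of all 21 libraries that shared at least 1 bp were merged into 166736 regions. Each region was assigned to the nearest protein-coding gene within 100 kb. A library called a region if it had a peak there. The 39 genes received 46 regions, and 21 of the genes had at least 1.

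The parent of all lines was H9, a widely used line of human embryonic stem cells. They were taken through blood progenitors, collected on day 11, and then through 28 days of microglial differentiation, and 80000 sorted cells were used per line. All lines received IL-34 (100 ng/mL), TGF-beta1 (50 ng/mL) and M-CSF (25 ng/mL). CD200 and CX3CL1 (100 ng/mL each) were present in the final 3 days. There were 7 lines with 3 libraries each. WT carries none of the edits. The other lines carry homozygous CRISPR/Cas9 edits at loci linked to Alzheimer's disease. They are TREM2-R47H and TREM2-KO at TREM2, a microglial lipid receptor, and SORL1-A528T and SORL1-KO (R744X) at SORL1, an endosomal sorting receptor. CD33 SNP and INPP5D SNP carry disease-associated variants at CD33, an inhibitory receptor, and INPP5D, a lipid phosphatase. The parent was heterozygous at the INPP5D variant and was made homozygous for the A allele, so WT carries 1 copy of it. Each line is a clone isolated after editing, and the number of clones behind a line was not given in the sources used here. Nothing in the labels says that the 3 libraries of a line came from separate cultures, so a p-value measures only the spread between libraries. The 3 libraries titled SORL1-A528T have TREM2-KO in their genotype label, and they were grouped by title.

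HOX genes encode homeodomain transcription factors that give cells of the embryo their position along the body axis. Within a cluster the genes stand in the order in which they are used from head to tail, from the low-numbered (anterior) to the high-numbered (posterior) paralogues. Polycomb complexes keep the clusters silent where they are not used, and trithorax group proteins such as KMT2A keep them active. In blood, HOXA9 and neighbouring HOXA and HOXB genes, with the cofactor MEIS1, are known from stem and progenitor cells, and their expression falls as cells mature. Microglia descend from early blood progenitors of the yolk sac.

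Depth differed by replicate number. The replicate 2 libraries had 12.8 to 17.5 M tags and 39736 to 67861 peaks, against 56.5 to 67.4 M tags for replicate 1 and 32.6 to 52.9 M for replicate 3. The fragment length in their file headers was also different, 136 to 494 bp against 74 bp in every other library. Of the 18 microglia and macrophage markers, 12 had a region called in all 21 libraries, among them SPI1, CSF1R, CX3CR1 and P2RY12. TMEM119 had no region, and SALL1 had 2, called in at most 2 libraries. Of the blood progenitor markers 9 of 12 had a region in all 21 libraries, of the pluripotent markers 3 of 11, and of the erythroid, megakaryocyte and mast cell markers 0 of 12. The part of such cells in the HOX calls was not tested.

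No HOX region was called in all 21 libraries, whereas 25599 of all 166736 regions (15.4%) were. Of the 46 HOX regions, 9 (19.6%) were called in at least 15 libraries, 22 in 2 to 14 and 15 (32.6%) in 1 library. Over all regions, 33.1% were called in at least 15 libraries and 25.8% in 1. A HOX region was called in a median of 3 libraries, against 7 for all regions. The counts differed without the replicate 2 libraries. Over the 14 libraries left without them, 6 of 46 HOX regions (13%) were called in every library, against 46309 of 157382 regions (29.4%). Among the 6 were those assigned to HOXA3, HOXA9, HOXA13, HOXC8 and HOXB3. Without the 3 SORL1-A528T libraries, 1 HOX region was called in every library left.

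The promoter sequences show what most libraries left without a peak. A promoter window here is 250 bases before to 50 after a gene start in RefSeq (GRCh38.p14), and 20 of the 39 genes matched an entry, with 27 windows. The genes matched were 9 of 11 in HOXA, 1 of 10 in HOXB, 2 of 9 in HOXC and 8 of 9 in HOXD. HOXA3 has several of the windows, and those of HOXC4 and HOXC5 are identical. The shares below therefore describe the windows matched and not all HOX promoters. No matched HOX window lay under a peak in all 21 libraries, and 22 of 27 (81.5%) lay under no peak of any library. Of 22105 other promoter windows, 37.8% lay under a peak in all 21 libraries and 31.7% under none. The windows with the most calls are printed first, those of HOXA4 (15 libraries) and HOXD1 (8 libraries), chosen after their values were seen. Then follows, for each cluster, the lowest-numbered matched gene whose window lay under no peak of any library. Each is the 250 bases before the start, read 5′ to 3′ on the gene's strand, with CG dinucleotides, the letters counted below, in capitals.
HOXA4 promoter, chr7:27130758-27131007, minus strand: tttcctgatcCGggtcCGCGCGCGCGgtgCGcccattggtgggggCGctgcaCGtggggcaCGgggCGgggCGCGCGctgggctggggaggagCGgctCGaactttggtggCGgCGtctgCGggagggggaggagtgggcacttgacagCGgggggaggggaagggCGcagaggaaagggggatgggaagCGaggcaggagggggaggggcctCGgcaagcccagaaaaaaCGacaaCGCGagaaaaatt
HOXD1 promoter, chr2:176188418-176188667, plus strand: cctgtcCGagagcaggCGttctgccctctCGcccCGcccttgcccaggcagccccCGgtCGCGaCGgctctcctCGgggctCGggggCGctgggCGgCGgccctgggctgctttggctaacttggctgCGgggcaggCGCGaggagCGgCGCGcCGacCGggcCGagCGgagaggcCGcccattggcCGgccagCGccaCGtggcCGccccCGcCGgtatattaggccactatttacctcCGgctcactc
HOXA2 promoter, chr7:27102684-27102933, minus strand: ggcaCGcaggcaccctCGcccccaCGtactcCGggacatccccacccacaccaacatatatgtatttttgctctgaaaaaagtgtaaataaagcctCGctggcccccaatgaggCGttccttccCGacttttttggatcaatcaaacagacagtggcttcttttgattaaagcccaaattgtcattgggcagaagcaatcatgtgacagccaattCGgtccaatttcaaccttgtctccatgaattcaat
HOXB1 promoter, chr17:48531012-48531261, minus strand: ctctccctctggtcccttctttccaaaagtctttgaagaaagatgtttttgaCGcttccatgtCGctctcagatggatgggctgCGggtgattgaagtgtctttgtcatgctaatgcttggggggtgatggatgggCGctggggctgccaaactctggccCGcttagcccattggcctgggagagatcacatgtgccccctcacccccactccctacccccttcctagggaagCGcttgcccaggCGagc
HOXC4 promoter, chr12:54016638-54016887, plus strand: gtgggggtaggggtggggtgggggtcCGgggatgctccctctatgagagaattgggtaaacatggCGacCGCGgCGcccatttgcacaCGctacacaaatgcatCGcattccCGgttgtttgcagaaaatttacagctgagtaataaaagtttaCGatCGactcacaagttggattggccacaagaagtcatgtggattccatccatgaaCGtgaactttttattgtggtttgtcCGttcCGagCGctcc
HOXD3 promoter, chr2:176157057-176157306, plus strand: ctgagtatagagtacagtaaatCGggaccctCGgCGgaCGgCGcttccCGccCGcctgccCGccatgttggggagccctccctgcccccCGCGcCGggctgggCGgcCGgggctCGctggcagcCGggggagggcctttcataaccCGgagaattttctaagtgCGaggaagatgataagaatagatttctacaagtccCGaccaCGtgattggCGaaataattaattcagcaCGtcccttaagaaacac

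The matched HOX windows held about as many CG dinucleotides as others. CG-rich promoters are usually open in many cell types. The 27 HOX windows held 0 to 44 CG dinucleotides, with a median of 22, and the other windows had a median of 21. Among the 10735 other windows with at least 22, 54.4% lay under a peak in all 21 libraries and 10.2% under none. Of the 14 HOX windows with at least 22, 0 lay under a peak in all 21 libraries and 11 under none. The HOXA13 window, with the most CG dinucleotides (44), had no peak, and the HOXD3 window, with 25, of which 21 are in the 250 bases printed above, had none either. Besides HOXA4 and HOXD1, peaks lay over 1 window of HOXA10 (5 libraries) and over 2 of the windows of HOXA3 (3 libraries and 1 library). Without the replicate 2 libraries, 1 HOX window (3.7%), that of HOXA4, lay under a peak in each of the 14 libraries left, against 53.2% of the other windows. The number under none stayed at 22. Over these 14 libraries the share of windows under none ranged from 0% (trithorax group list) to 100% (mesenchymal markers, 2 windows) over the other gene lists. It was 46.9% for other homeobox genes, 71.4% for endothelial markers (7 windows) and 75% for neural markers (28 windows). Windows without a peak were therefore not particular to HOX genes.

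**Figure D1:**
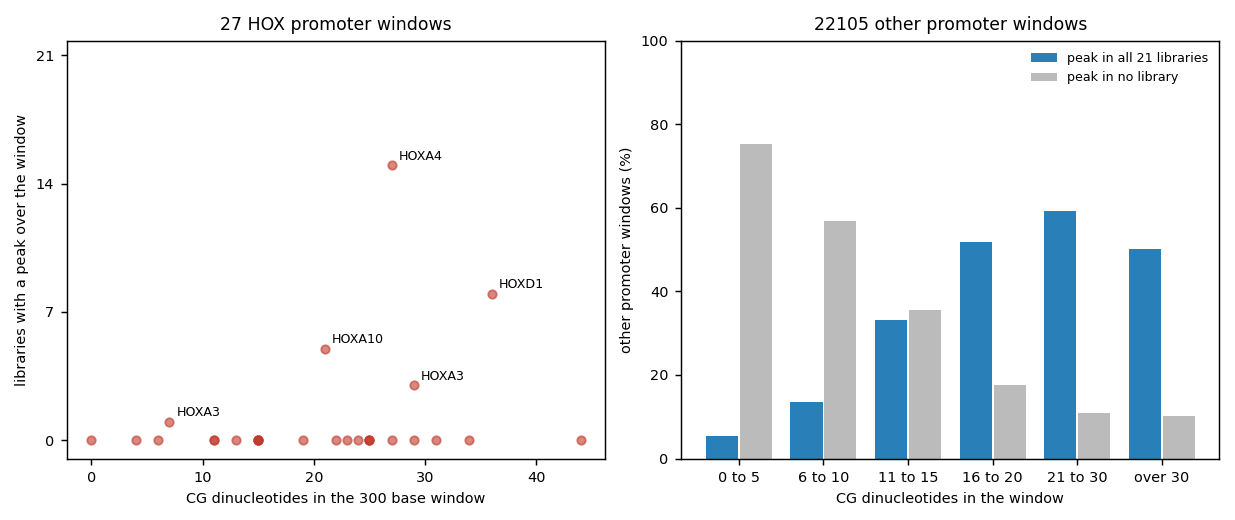
Left, CG dinucleotides in each of the 27 HOX promoter windows (x axis) against the number of the 21 libraries with a peak over the window (y axis); each point is 1 window and those with a peak are named. Right, the percent of the 22105 other promoter windows under a peak in all 21 libraries (blue) or in no library (grey), by CG dinucleotides; 59.2% of windows with 21 to 30 were under a peak in all 21 libraries, while no HOX window reached more than 15 libraries.

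Letters of 3 known motifs were searched on both strands of the 300 base windows. TGATTNAT, bound by HOX and PBX proteins together, was in 2 of 27 HOX windows (HOXA2 and HOXD11, 7.41%) and in 2.06% of all 22132 windows. GAGGAAGT, the site of the myeloid factor PU.1, was in 0 of 27 and in 2.63% of all. The core motif of CTCF, a factor found at chromatin domain borders, was in 4 of 27 (14.8%) and in 12.4% of all. These are matches of letters, with no test.

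The HOXA cluster held the most recurrent HOX regions. It spans 107.1 kb on chromosome 7 with 11 genes, and 9.99% of its length lay under a peak of any library. In single libraries the covered share ran from 0% to 7.49% with a median of 4.09%. Of the 11 HOXA genes, 6 were assigned no region: HOXA2, HOXA4, HOXA5, HOXA6, HOXA7 and HOXA10. HOXA4 and HOXA10 nevertheless had peaks over a promoter window, which were assigned to longer spans lying over them, HOXA3 and the HOXA10-HOXA9 readthrough gene. The readthrough region, at 27179571 to 27180297, was called in 5 libraries.

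In the middle of the cluster, 2 regions were recurrent. The region at 27130522 to 27131587 lies over the start of HOXA4 within the span of HOXA3 and was called in 15 libraries. It was missing in WT 2, TREM2-KO 2, SORL1-A528T 2, SORL1-KO 2, CD33 SNP 2 and INPP5D SNP 2, and in no other library. HOXA9, a factor of blood progenitors, had 1 region, at 27160622 to 27162039, which lies 0.399 kb outside its span on the side of HOXA7 and was called in 17 libraries. The place of its peak in the deposited list of a library, where 100 is the top, had a lowest value of 6.16 in INPP5D SNP 3, a median of 57.9 and a highest value of 73.2 in TREM2-R47H 1. No source used here states what the lists are sorted by. Peaks of this region covered 501 to 1405 bp, and the 4 libraries without it were all replicate 2. The longest stretch of the cluster without a peak of any library, 17.5 kb from 27162040 to 27179570, follows it and holds HOXA9 itself and the microRNA gene MIR196B.

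At the posterior end, HOXA11 and HOXA13, used in limb and urogenital tract, had recurrent regions outside their spans. A region at 27188420 to 27189435 stands 3.19 kb from HOXA11 and was called in 17 libraries. A region at 27200807 to 27201879 stands 0.716 kb beyond HOXA13 and was called in 18 libraries, all but WT 2, SORL1-A528T 2 and INPP5D SNP 2. Another region, at 27192468 to 27193348 and 1.02 kb from HOXA13, was called in 12, of which none was replicate 2.

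**Figure D2:**
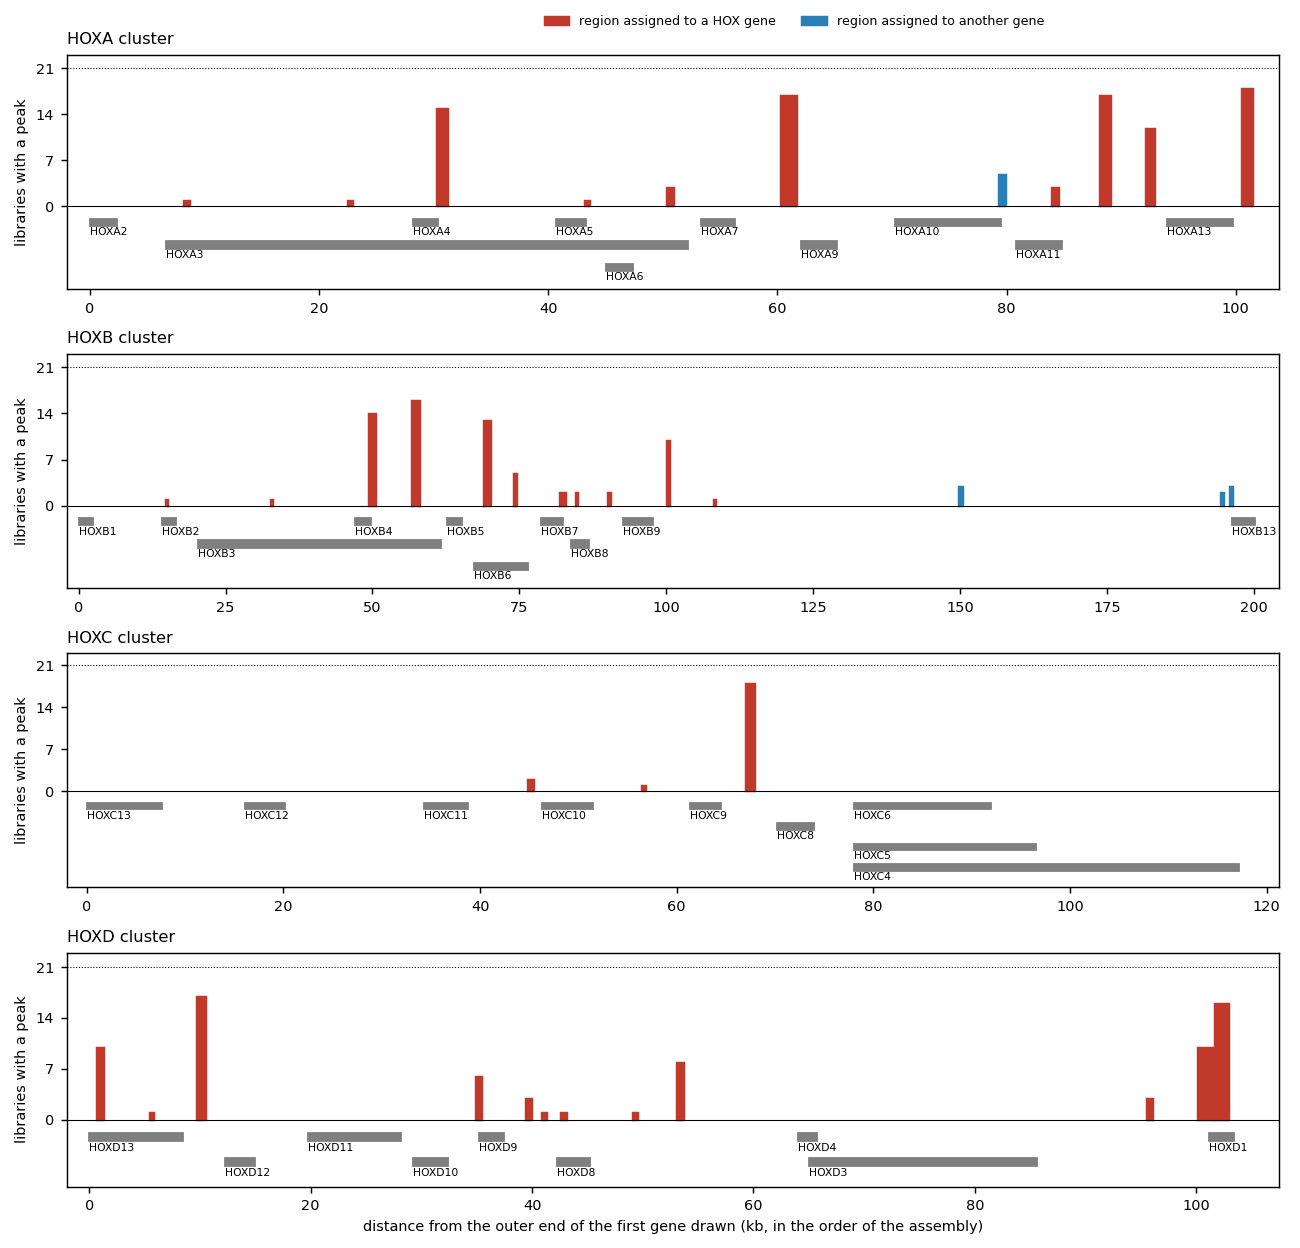
The 4 HOX clusters, each with the distance from the outer end of the first gene drawn in kb (x axis) and the number of the 21 libraries with a peak in each merged region (bar height, bar width to scale; red, assigned to a HOX gene; blue, assigned to another gene). Grey boxes are gene spans and the dotted line marks 21 libraries; the tallest bars shown, near HOXA13 and HOXC8, reach 18. Not every gene and region is drawn.

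The HOXB cluster was open mainly between HOXB3 and HOXB6. It spans 200.2 kb on chromosome 17, and 5.82% of it lay under a peak of any library. The share covered in single libraries had a median of 1.08% and ran from 0% to 3.71%, the highest in TREM2-R47H 1. HOXB3, used in hindbrain and blood progenitors, had regions at 48585082 to 48586590 (16 libraries) and at 48577837 to 48579102 (14 libraries), the latter also over the span of HOXB4, a gene known for expanding blood stem cells. HOXB6 had a region at 48597413 to 48598628 called in 13 libraries, none of them replicate 2. HOXB9 had a region at 48628443 to 48629116 called in 10. HOXB4, HOXB5 and HOXB13 were assigned none, and the regions of HOXB2, HOXB7 and HOXB8 were called in at most 2 libraries. HOXB1 had 2 regions, 22.1 and 35.4 kb outside the cluster, called in 7 libraries and 1 library. The longest stretch without a peak, 43.8 kb from 48678981 to 48722739, lies towards the isolated HOXB13, a gene of the hindgut and prostate.

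The HOXC cluster had the least open chromatin. It spans 117.2 kb on chromosome 12, held 3 regions, and 1.97% of it lay under a peak of any library, with a median of 0.646% over single libraries. Its recurrent region, at 54005755 to 54006803, stands between HOXC9 and HOXC8, genes of the trunk, 2.18 kb from HOXC8, and was called in 18 libraries. It was missing in WT 2, SORL1-A528T 2 and INPP5D SNP 2, the same 3 libraries that lacked the HOXA13 region. HOXC5, HOXC6, HOXC11 and HOXC12 were assigned no region. HOXC4, HOXC9, HOXC10 and HOXC13 had 1 each, called in at most 2 libraries. The longest stretch without a peak in any cluster, 49.2 kb from 54006804 to 54056030, holds HOXC8, HOXC6, HOXC5 and HOXC4.

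The HOXD cluster was called at its ends and little in its middle. It spans 103.4 kb on chromosome 2, and 9.15% of it lay under a peak of any library, with a median of 1.77% over single libraries. At the posterior end a region at 176097105 to 176098065, between HOXD13, a gene of digits, and HOXD12, was called in 17 libraries. At the anterior end HOXD1 had regions 4 bp apart, at 176187563 to 176189085 over its start (10 libraries) and at 176189090 to 176190414 (16 libraries). At least 1 of these was called in 18 libraries. HOXD3, HOXD4, HOXD10, HOXD11 and HOXD12 were assigned no region, and 41.7 kb from 176141253 to 176182938, with HOXD4 and HOXD3, held no peak. The regions of HOXD9 and HOXD8 between were called in at most 8 libraries.

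Missing calls at the 9 recurrent regions fell mostly in the shallow libraries. Of 189 possible calls 35 were missing, 30 of them in replicate 2 libraries. The other 5 were WT 3 at HOXA11, TREM2-KO 1 and SORL1-A528T 3 at HOXD13, and SORL1-A528T 3 and INPP5D SNP 3 at HOXD1. The 9 regions stood at a median of 40.6 in the lists, against 48.4 for all regions called in 15 to 20 libraries. With lists of equal length, the 39711 peaks at the top of each, 13 HOX regions were left, called in a median of 4 libraries and none in all 21. Of all 71927 regions of those lists, 27.1% were called in all 21, and the median was 11.

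The clusters stood inside long stretches without a region called in every library. From the nearest such region on one side to the nearest on the other were 473 kb for HOXA, 842 kb for HOXB, 460 kb for HOXC and 229 kb for HOXD. These outer regions were assigned to SKAP2 and EVX1 around HOXA, NFE2L1 and ATP5MC1 around HOXB, CALCOCO1 and SMUG1 around HOXC, and LNPK and MTX2 around HOXD. Of 806 windows of 100 kb with at least 5 genes, 201 (24.9%) had no region called in all 21 libraries. Such windows have a fixed length and are shorter than the stretches. The share therefore does not say how unusual the stretches are.

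Mature microRNAs of the clusters also repress HOX transcripts, and their genes had few peaks. MIR196B lies in HOXA, MIR196A1 in HOXB and MIR196A2 in HOXC, and their 5p products share a seed (bases 2 to 8, in capitals). MIR10A lies in HOXB. The sequences are from RefSeq. Those of miR-196a-5p and miR-196b-5p are shown because the seed they share joins 3 of the clusters. The seed of miR-10a-5p is a different one.
hsa-miR-196a-5p: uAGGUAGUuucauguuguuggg
hsa-miR-196b-5p: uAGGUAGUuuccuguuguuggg
hsa-miR-10a-5p: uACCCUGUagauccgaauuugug

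The hairpins of MIR196A1, MIR196A2, MIR196B, MIR10A, MIR10B and MIR615 lay under no peak of any library. MIR10A stands 736 bp from the HOXB3 region called in 14 libraries, the shortest distance to any region among these 6. MIR7704, at HOXD1, was under a peak in 8 libraries, and MIR3185, near HOXB13, in 2.

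Genes that act on or with HOX proteins more often had a region called in every library than the HOX genes did. A region called in all 21 libraries was found for 0 of 39 HOX genes and for 10515 of 19935 other protein-coding genes (52.7%). No region at all was assigned to 18 HOX genes (46.2%) and to 12.1% of the others. This count depends on giving each region to 1 gene, since some HOX spans overlap. With a region assigned to every gene it overlaps, 26 of the 39 HOX genes had at least 1. The share of other genes at that setting is not given here. HOX genes had a median of 1 region, and the others 3. HOX cofactors had a region in all 21 libraries for 7 of 11 genes (63.6%), among them PBX3, which binds DNA with HOX proteins, and MEIS1 with 4 such regions. Polycomb genes had one for 24 of 36 (66.7%). The trithorax group list, which holds KMT2A and other HOX activators and also factors such as CTCF and RAD21, had one for 19 of 23 (82.6%). Upstream regulators of the clusters, retinoic acid receptors and CDX genes among them, had one for 11 of 16 (68.8%). CDX2 was among these, and CDX1 and CDX4 were not. The genes flanking the clusters had one for 18 of 27 (66.7%). Other homeobox genes, mostly factors of early development, had one for 12 of 43 (27.9%). These regions need not lie at promoters. A promoter window under a peak in all 21 libraries was found for 1 of 14 matched upstream regulators. It was found for 19 of 32 matched Polycomb genes and 6807 of 15792 other protein-coding genes.

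Without the replicate 2 libraries these shares rose, and the order of HOX and other genes held. A region called in each of the 14 libraries left was found for 6 of 39 HOX genes (15.4%) and 70.7% of the others. The share was 72.7% for HOX cofactors, 86.1% for Polycomb genes, 91.3% for the trithorax group list and 51.2% for other homeobox genes. It was 16.7% for the erythroid, megakaryocyte and mast cell markers, near the HOX share. Longer genes collect more regions, and HOX genes are short, with spans of a few kb for most, so these counts compare loci and not the same length of DNA.

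**Figure D3:**
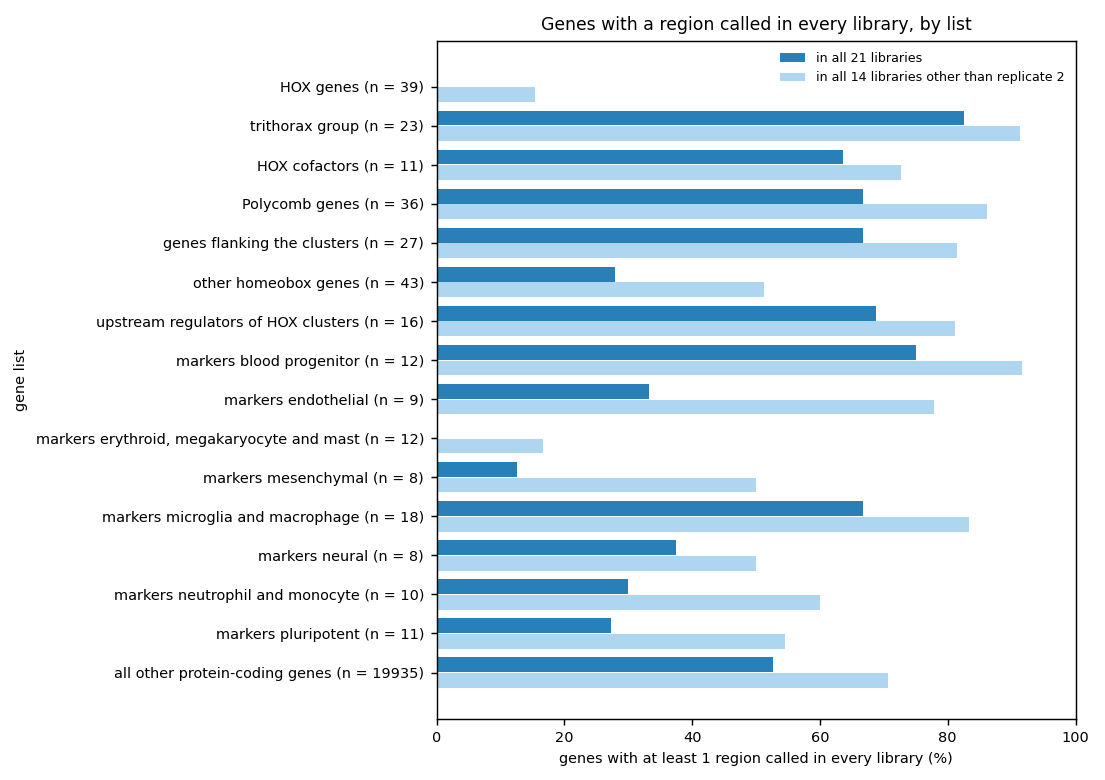
Percent of the genes of each list with at least 1 region called in all 21 libraries (dark) or in all 14 libraries other than replicate 2 (light), with the number of genes in brackets. HOX genes stand at 0% and 15.4%, and all other protein-coding genes at 52.7% and 70.7%.

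The share of HOX calls ran from 21% to 41.3% over the lines and from 13% to 42.5% over the replicate numbers. Of 138 possible calls per line (46 regions in 3 libraries), WT made 40 (29%), TREM2-R47H 57 (41.3%), TREM2-KO 43 (31.2%), SORL1-A528T 29 (21%), SORL1-KO 47 (34.1%), CD33 SNP 45 (32.6%) and INPP5D SNP 42 (30.4%). Over the regions of all other protein-coding genes the share was 49.6% in WT, 50.3% in TREM2-R47H, 49% in TREM2-KO, 39.4% in SORL1-A528T, 47.9% in SORL1-KO, 53.2% in CD33 SNP and 46.5% in INPP5D SNP. SORL1-A528T was the lowest line in both. By replicate number the share was 42.5%, 13% and 38.5% for replicates 1, 2 and 3, against 48.4%, 31.3% and 53.4% over all regions. WT libraries called 18, 2 and 20 HOX regions, TREM2-R47H 28, 8 and 21, and TREM2-KO 18, 8 and 17. SORL1-A528T called 15, 1 and 13, SORL1-KO 21, 10 and 16, CD33 SNP 17, 8 and 20, and INPP5D SNP 20, 5 and 17. Every line overlapped WT in these numbers, and in each line replicate 2 was the lowest.

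The number a library could be expected to call was taken from all regions called in as many libraries as each HOX region. WT libraries differed from it by -1.94 ± 1.53 regions (SD, n = 3), TREM2-R47H by 3.86 ± 5.14, TREM2-KO by -1.35 ± 5.99 and SORL1-A528T by -0.671 ± 2.86. The difference was 1.57 ± 2.37 in SORL1-KO, -1.82 ± 0.774 in CD33 SNP and 0.344 ± 3.13 in INPP5D SNP. The highest library was TREM2-R47H 1, with 28 regions called against 18.2 expected, 11 of them in HOXB. TREM2-R47H 2 and 3 stood at 8 against 7.59 and 21 against 19.6, so the difference of that line came from 1 library. TREM2-R47H 1 also held 4 of the 15 HOX regions called in a single library, and 12 of these 15 came from replicate 1 libraries. No test was made on these sums.

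**Figure D4:**
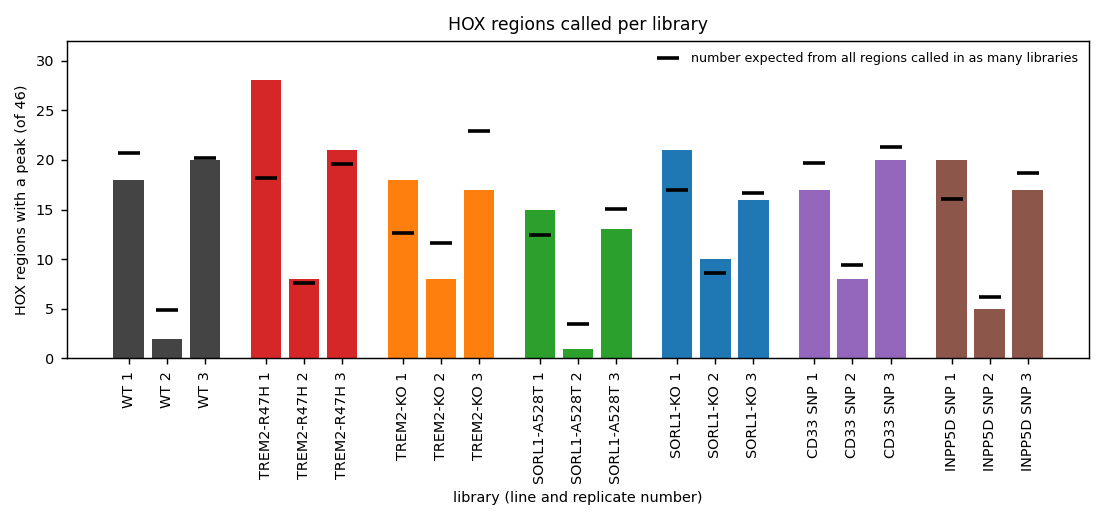
Number of the 46 HOX regions called (bars, coloured by line) in each of the 21 libraries, with the number expected from all regions called in as many libraries (black marks). Replicate 2 is the lowest bar of each line, and TREM2-R47H 1 stands highest with 28 against 18.2 expected.

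Whether a line differed from WT at a HOX gene was tested on the depth-adjusted call. From each call (0 or 1) the average was subtracted that the library in question reached over all regions with the same number of callers, and the result was averaged over the regions of a gene. Of 11787 genes with at least 3 regions, 8 were HOX genes, among them HOXA3, HOXA13, HOXB3, HOXB9, HOXD1, HOXD8 and HOXD13. In limma with Benjamini-Hochberg adjustment over all genes, 0 of 8 HOX genes passed an adjusted p of 0.05 in any of the 6 comparisons. The background was also 0 genes (0%) in TREM2-R47H, 0 (0%) in TREM2-KO, 0 (0%) in SORL1-A528T, 0 (0%) in SORL1-KO, 0 (0%) in CD33 SNP and 0 (0%) in INPP5D SNP. The test of any difference among the 7 lines called 0 (0%) too. So no gene of the cofactor, Polycomb, trithorax, upstream, flanking or homeobox lists passed. At an unadjusted p below 0.05 there were 598 genes higher and 359 lower in TREM2-R47H, 153 and 265 in TREM2-KO, 251 and 234 in SORL1-A528T, 338 and 227 in SORL1-KO, 211 and 114 in CD33 SNP, and 199 and 161 in INPP5D SNP. HOX genes at that level numbered 1, 1, 1, 0, 0 and 1 in the same order, and 2 of 8 (662 of 11787 genes) in the test of any line.

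HOXD8, a gene of the trunk, had the smallest p. Its depth-adjusted call was -0.232, -0.025 and -0.209 in the WT libraries 1, 2 and 3 and 0.366, 0.217 and 0.320 in INPP5D SNP. All 3 INPP5D SNP libraries stood above all 3 WT libraries. The difference was 0.456 (SE 0.090, n = 3 per line, limma adjusted p = 0.435), and the test of any line gave an adjusted p of 0.563. HOXD8 had 4 regions, 3 of them called in 1 library each, 2 of these in INPP5D SNP. It reached the 3 regions needed for the test only through those 2, so the line in which it stood high put it among the genes tested, and its values are a description. With regions called in at least 2 libraries it was not tested, and with all genes of at least 1 region its limma adjusted p was 0.999. Leaving out 1 library at a time gave a limma adjusted p of 1 without WT replicate 1, WT replicate 3 or INPP5D SNP replicate 1. It was 0.819 without INPP5D SNP replicate 3, and the lowest was 0.052 without TREM2-KO replicate 3, which alone called the remaining region. The difference ran from 0.415 to 0.607 in these.

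HOXB9 in TREM2-R47H and HOXD13 in SORL1-A528T had the smallest p among the tested HOX genes of those comparisons. HOXB9, a posterior gene of the trunk, stood at -0.353, -0.033 and 0.005 in WT and at 0.709, -0.055 and 0.011 in TREM2-R47H. The lines overlapped, and 1 library, TREM2-R47H 1, carried the difference of 0.349 (SE 0.162, limma adjusted p = 0.607). Without that library HOXB9 had too few regions to be tested. HOXD13 stood at 0.368, -0.145 and 0.060 in WT and at -0.067, -0.096 and -0.470 in SORL1-A528T, overlapping, with a difference of -0.305 (SE 0.130, limma adjusted p = 0.982). HOXD13 had 3 regions, 1 of them called in WT 1 alone. It reached the number needed for the test only through that WT library, so its values are a description.

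HOXD1, an anterior gene, stood at -0.019, -0.120 and 0.336 in WT and at 0.260, 0.363 and 0.290 in TREM2-KO. The lines overlapped, with a difference of 0.239 (SE 0.148, limma adjusted p = 1). In CD33 SNP HOXD1 stood at -0.335, 0.064 and -0.046, again overlapping, with a difference of -0.171 (SE 0.148, limma adjusted p = 0.999). In INPP5D SNP it stood at -0.190, -0.157 and -0.286, below all 3 WT libraries, with a difference of -0.277 (SE 0.148, limma adjusted p = 0.999). HOXD1 was chosen here after its values were seen. In SORL1-KO the HOX gene with the smallest p was HOXD8, with a difference of 0.130 (SE 0.090, limma adjusted p = 0.943). All comparisons share the WT libraries. The median difference of the 8 HOX genes was 0.001 in TREM2-R47H, 0.058 in TREM2-KO, 0.090 in SORL1-A528T, 0.051 in SORL1-KO, -0.037 in CD33 SNP and -0.012 in INPP5D SNP. Over all genes it lay between -0.0138 and 0.0110.

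Single regions were also compared as all-or-none: every library of the line had the peak and no WT library did, or the reverse, with 3 libraries on each side. There was no test per region. The share of all 166736 regions that did so in either direction was 0.43% in TREM2-R47H, 0.106% in TREM2-KO, 0.498% in SORL1-A528T, 0.296% in SORL1-KO, 0.137% in CD33 SNP and 0.17% in INPP5D SNP. Among the 46 HOX regions there was 1 in CD33 SNP, 1 in INPP5D SNP and 0 in each other line, and both were gained. The share of all regions gained was 0.0954% in CD33 SNP and 0.0276% in INPP5D SNP.

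The CD33 SNP region lies over HOXD9, a trunk and limb gene, at 176122309 to 176122993 on chromosome 2. It was called in all 3 CD33 SNP libraries, in 1 each of TREM2-R47H, SORL1-KO and INPP5D SNP, and in none of WT, TREM2-KO and SORL1-A528T. The INPP5D SNP region stands 7.76 kb from HOXD8 at 176140455 to 176141252. It was called in all 3 INPP5D SNP libraries, in 2 of TREM2-R47H, in 1 each of TREM2-KO, SORL1-KO and CD33 SNP, and in none of WT and SORL1-A528T. Both stood low in the lists of the libraries that called them, at medians of 19.1 and 7.05. With lists of equal length neither was all-or-none.

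**Figure D5:**
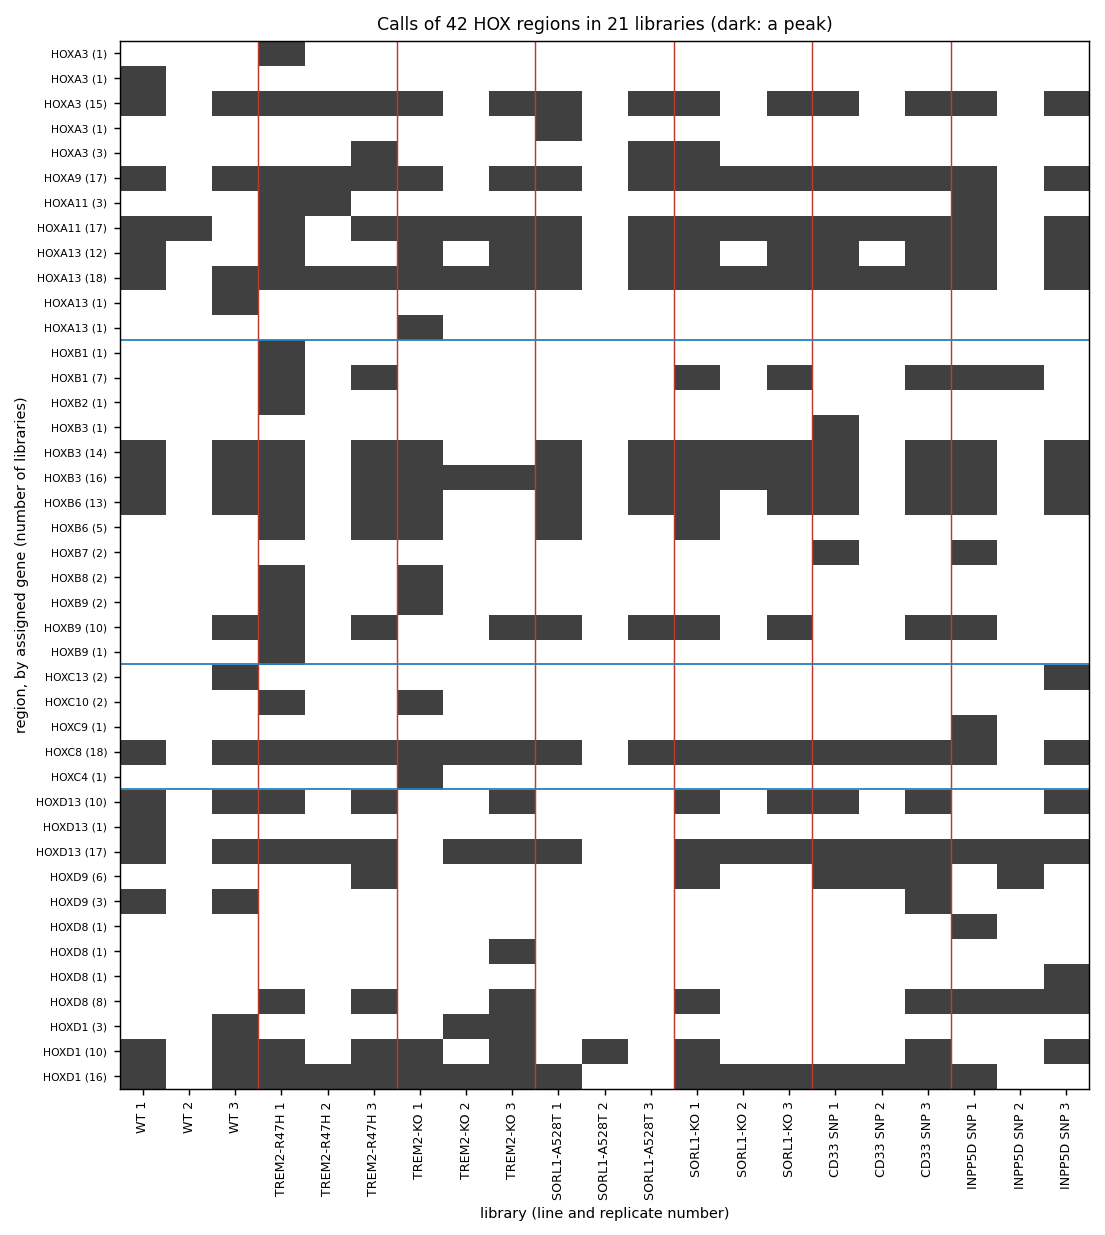
Calls of 42 of the 46 HOX regions (rows, by cluster and position, named by assigned gene with the number of libraries in brackets) in the 21 libraries (columns, by line and replicate number; dark, a peak; red lines part the lines and blue lines the clusters). The HOXA13 and HOXC8 regions called in 18 libraries run across all lines, and the columns of replicate 2 are the emptiest of each line.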

How the data were processed

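ATAC-seq peak lists of 21 libraries were used as deposited. The submitters' processing notes name cutadapt 1.18, STAR 2.7, HOMER 4.10 and DESeq2. HOMER called peaks in each library on its own, per the file headers, in histone style with no control, at a peak size of 500, a 4.00-fold excess over the local 10000 bp and a local Poisson p of 1.00e-04. The deposited score equals 1 throughout, and no peak height is given. A read shift for the transposase, and the genome build, were not given in the sources used here. Of 22132 RefSeq (GRCh38.p14) gene starts, 42.9% lay in a region that all 21 libraries called. Shifted by 10 kb the share was 2.52% or 2.37%. Peaks outside chromosomes 1 to 22 and X (0.0821% of 1604926) were left out. Region coordinates are counted from 1.

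A region over several gene spans went to the one it overlaps most. Depth-adjusted calls were tested with limma 3.58.1 in R 4.3.3 over all libraries, with line as the only term, after a check on simulated data. The members and gene lists were chosen with earlier results of these data known. Genes named are those with a region in every library or none, the tested HOX genes with the smallest adjusted p, and every all-or-none HOX region. Some genes are counted but not reported by name here. Of the gene lists, TDGF1 was not matched. Alternatives covered the regions a gene needs, the call, the merging, list length, depth adjustment, assignment, the replicate block and libraries left out.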

Additional observations from a re-analysis of the deposited data

How the results depend on the processing

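No HOX gene passed in any of the 119 alternative counts. Some of the settings covered few HOX genes. Only 1 was tested with at least 5 regions per gene, and 2 with regions called in at least 2 libraries. The counts at those settings say nothing of the HOX genes left untested. None of 77 alternative differences changed sign. These were refits of only the HOX gene with the smallest p in each comparison, chosen from these same data. They share most libraries with the main fit and say nothing of the other HOX genes. Over all genes 0 passed, except 1 in TREM2-KO with regions called in at least 2 libraries, 1 in INPP5D SNP with at least 5 regions per gene, and 1 in CD33 SNP and 4 for any line with lists of equal length. Leaving out single libraries gave 0 to 2 in TREM2-R47H and 0 to 1 in TREM2-KO. No HOX gene could be tested with lists of equal length. With the replicate block 0 HOX genes passed (HOXD8 in INPP5D SNP: 0.456, limma adjusted p = 0.413). The replicate block raised the genes below an unadjusted p of 0.05 from 662 to 1248 for any line. Deviations of same-numbered libraries correlated by -0.0597 to 0.531, with a mean of 0.158 over 63 pairs. The mean was -0.0772 for differently numbered libraries, so same-numbered libraries were more alike on average. Of the 18 same-numbered pairs with WT, 7 were above 0.1. The main fit treated the libraries as unpaired, with the replicate block as the alternative.

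Lists of equal length left 13 HOX regions, 11 HOX genes with a region, 1 region in at least 15 libraries, 20.5% of possible calls in SORL1-KO, and 0 all-or-none HOX regions in CD33 SNP and 0 in INPP5D SNP. Peaks covering at least 50% of a region left 3 regions in at least 15 libraries and 21% of calls in SORL1-KO. Regions called in at least 2 libraries gave 50.5% in SORL1-KO and 47.3% in CD33 SNP. Leaving out a replicate number gave 30 to 46 HOX regions, 0 to 6 called in every library and 6 to 15 in at least 15 of 21 (in proportion), and 30.5% to 46.7% of calls in CD33 SNP. All-or-none HOX regions then ranged from 0 to 4 in TREM2-R47H, 0 to 1 in TREM2-KO, 0 to 3 in SORL1-A528T, 0 to 2 in SORL1-KO and 1 to 2 in INPP5D SNP. With only 2 libraries left on each side, all-or-none is easier to reach for any region. The share over all regions at that setting is not given here, so these counts cannot be judged. Leaving out the SORL1-A528T libraries, added after seeing the data, gave 1 HOX region in every library. The cause of these shifts was not tested. Absence of a peak in the replicate 2 libraries says only that none was detected there. Those libraries differed from the others in depth and in the fragment length of their headers, and these cannot be told apart here.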
